A study of Mus musculus with 9 samples.

Results

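The genes described here encode the SR proteins, the heterogeneous nuclear ribonucleoproteins (hnRNPs) and the core proteins of the U1 and U2 small nuclear ribonucleoproteins (snRNPs) of the spliceosome. They were chosen by gene symbol alone: Srsf with a number, Hnrnp, Sf3a or Sf3b with a number, Snrp and U2af, without pseudogene and opposite-strand names and without Snrpn. Of the 40213 symbols in the count tables, 54 met this rule: 20 hnRNP, 11 SR, 3 SF3a, 6 SF3b, 3 U2AF and 7 Sm core genes, and 4 genes of U1- or U2-specific proteins. All 54 reached a mean of at least 1 CPM (counts scaled to a common library size) in a group, and all 54 passed the filter on low counts, with a smallest count of 61 in any library.

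RNA-seq libraries came from 3 groups of mouse embryonic stem cells (ESCs) grown in ESC medium with LIF, with 3 libraries each. The J1 group is the J1 ESC line, used as the control. The OCT4 and EWS-OCT4 groups are stable lines with Niwa in their label, and both received doxycycline at 1 µg/ml to lower the endogenous Oct4 gene. EWS-OCT4 is a fusion of EWS, an RNA-binding protein of the FET family, with the transcription factor OCT4. By the series title, the question was whether the fusion can stand in for OCT4 in ESC self-renewal. The labels do not say whether J1 received doxycycline, how many clones each stable line stands for, which promoter drives the introduced gene or whether replicates are separate cultures. The p-values therefore reflect library-to-library spread alone, which may be technical. The EWS-OCT4 and OCT4 lines share the treatment and, by their labels, the background. Construct and any other difference between these lines, as on the sex chromosomes (below), cannot be told apart. Each stable line differs from J1 in line, construct and possibly doxycycline, which cannot be told apart either.

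Splicing begins when the U1 snRNP pairs with the 5′ splice site and U2AF binds the 3′ splice site, after which the U2 snRNP, with its SF3a and SF3b complexes, settles on the branch point. The Sm proteins form the ring around the U1, U2, U4 and U5 RNAs. SR proteins bind exons through RNA recognition motifs and mostly favour the use of nearby splice sites, while hnRNPs coat the nascent RNA and often oppose them. Many genes of both families hold a conserved exon that, when its splicing changes, sends the transcript to decay, and counts per gene cannot tell such transcripts from coding ones. EWS itself binds RNA and is known to bind the U1 protein U1-C, encoded by Snrpc.

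Library totals ran from 21149358 to 24786305 counts. Pou5f1, which encodes OCT4, was at 522, 639 and 545 CPM in J1, at 165, 168 and 162 CPM in the OCT4 line and at 25.6, 29.3 and 25.6 CPM in the EWS-OCT4 line, and these counts may mix endogenous and introduced sequence. All 12 ESC markers were above 1 CPM in each group, with a summed level of 5049 to 5543 CPM in J1, 3992 to 4085 CPM in the OCT4 line and 4445 to 4528 CPM in the EWS-OCT4 line. The 8 trophoblast markers summed to 104 to 128 CPM in J1, 402 to 435 CPM in the OCT4 line and 131 to 136 CPM in the EWS-OCT4 line, so they were highest where many splicing genes were lowest, and their part in the results was not tested. Primitive endoderm markers summed to 21.9 to 31.9 CPM in J1 and the OCT4 line and to 10.3 to 11.7 CPM in the EWS-OCT4 line. Fibroblast markers summed to 80.9 to 100.3 CPM in J1, 57.7 to 64.02 CPM in the OCT4 line and 28.6 to 31.99 CPM in the EWS-OCT4 line. These ranges did not overlap, and Lum or Dcn was at 0 in each group. All 4 fibroblast markers tested were lower in the EWS-OCT4 line than in the OCT4 line and than in J1. Against J1, 2 were lower and 1 was higher in the OCT4 line. The part of fibroblast markers in the results was not tested. Neural markers summed to 96.9 to 121 CPM over all libraries, with Dcx at 0. For J1, OCT4 and EWS-OCT4 libraries in this order, mitochondrial genes took 14.6% ± 1.67, 11.9% ± 1.15 and 17.1% ± 0.402 of counts (SD, n = 3), and the noncoding gene Gm26917 took 0.966% ± 0.145, 4.43% ± 1.19 and 1.75% ± 0.105. Among the J1 libraries, replicates 1 and 2 differed most from each other, and replicate 3 was closer to each. J1 replicate 1 was the lowest J1 library for 38 of the 54 splicing genes, and the matching share of all genes is not given. In both stable lines, genes of chromosomes 8 and 11 had medians below J1. The medians were -0.44 and -0.51 on the log2 scale in the EWS-OCT4 line, and -0.47 and -0.46 in the OCT4 line. Against each other, the stable lines' medians for these chromosomes were 0.010 and -0.077. The stable lines differed more on the sex chromosomes. The EWS-OCT4 line over the OCT4 line had a median of -0.52 on X (602 genes) and 1.60 on Y (10 genes). Against J1, the OCT4 line was at 0.63 on X and -1.08 on Y, and the EWS-OCT4 line at 0.14 and 0.51. The cause was not tested.

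The promoters of Srsf2, Srsf3, Srsf6 and Srsf7 are shown because these 4 were the SR genes at least 1.5-fold lower in the OCT4 line than in both J1 and the EWS-OCT4 line, as described next. Each run is the 250 bases before the annotated start, 5′ to 3′ on the gene's strand, from RefSeq on build GRCm38.p6. Capitals mark GGGCGG (the GC box), CCAAT (the CCAAT box), an ETS-type site written CCGGAAG, and the TATA-like TATAAA, on either strand, with overlapping matches run together.
Srsf2, chr11:116853095-116853344, minus strand: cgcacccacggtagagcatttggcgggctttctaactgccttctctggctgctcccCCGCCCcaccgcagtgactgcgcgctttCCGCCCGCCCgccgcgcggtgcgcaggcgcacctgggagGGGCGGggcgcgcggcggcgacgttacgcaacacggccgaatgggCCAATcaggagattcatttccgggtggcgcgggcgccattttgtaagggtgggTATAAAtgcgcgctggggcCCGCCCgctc
Srsf3, chr17:29032410-29032659, plus strand: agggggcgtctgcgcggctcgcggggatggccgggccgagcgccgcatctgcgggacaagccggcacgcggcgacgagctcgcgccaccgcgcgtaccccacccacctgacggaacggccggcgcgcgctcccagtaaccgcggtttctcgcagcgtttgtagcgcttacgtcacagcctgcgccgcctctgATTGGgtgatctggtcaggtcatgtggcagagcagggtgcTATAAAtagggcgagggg
Srsf6, chr2:162931258-162931507, plus strand: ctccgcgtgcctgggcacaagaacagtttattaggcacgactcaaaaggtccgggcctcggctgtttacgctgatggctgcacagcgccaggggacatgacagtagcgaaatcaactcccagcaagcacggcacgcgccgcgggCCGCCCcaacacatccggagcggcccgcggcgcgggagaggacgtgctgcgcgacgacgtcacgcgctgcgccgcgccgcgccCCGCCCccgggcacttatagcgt
Srsf7, chr17:80207306-80207555, minus strand: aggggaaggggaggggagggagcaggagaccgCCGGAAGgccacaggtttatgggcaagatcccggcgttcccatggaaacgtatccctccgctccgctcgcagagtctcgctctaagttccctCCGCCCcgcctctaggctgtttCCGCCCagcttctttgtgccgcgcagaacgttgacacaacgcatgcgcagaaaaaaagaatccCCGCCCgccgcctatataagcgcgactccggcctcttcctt

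Srsf2 held 5 GC boxes with 1 CCAAT and 1 TATAAA, Srsf3 held 1 CCAAT, read as ATTGG on this strand, and 1 TATAAA, Srsf6 held 2 GC boxes, and Srsf7 held 3 GC boxes and 1 CCGGAAG. In all, 47 of the 54 genes matched 62 such windows, of 32851 in the reference. The GC box was in 44 of the 62 windows (71.0%), against 32.7% of all windows. CCAAT was in 28 (45.2%, against 33.8%), CCGGAAG in 19 (30.6%, against 6.91%) and TATAAA in 5 (8.06%, against 12.4%). The octamer ATGCAAAT, the DNA motif of OCT4 and its relatives, was in 0 of the 62 windows and in 1.60% of all windows. These 5 motifs were picked after a wider set had been searched in these promoters, windows of a gene can overlap, and the shares are a description with no test.

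Between the stable lines, splicing genes were mostly higher in the EWS-OCT4 line. Of the 54 genes, 29 passed the test as higher in the EWS-OCT4 line, where 31.9% of all 16562 genes tested did, and 2 as lower, where 34.6% of all genes did. At a fold of at least 1.5, 12 were higher (17.4% of all genes) and 1 was lower (24% of all genes). The median log2 fold change over the 54 genes was 0.22, beside -0.035 over all genes tested, and the 3 libraries of each line did not overlap for 40 genes (72.9% of all genes). Genes that passed in either direction were 31 of 54, beside 66.5% of all genes. The largest differences were in the SR genes Srsf6, Srsf3 and Srsf2, followed by Sf3a3 and Hnrnpm, while Hnrnph3 and Hnrnpa1 were lower. Without mitochondrial genes and Gm26917 in the fit, 33 were higher and 2 lower. Without J1 replicate 1, 37 were higher and 5 lower, the added lower ones being Hnrnpa3, Snrpf and Srsf9. That library belongs to neither line and enters through the shared gene filter, scaling and estimate of the spread. In bulk RNA, fewer cells of a type and less RNA per cell cannot be told apart.

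**Figure D1:**
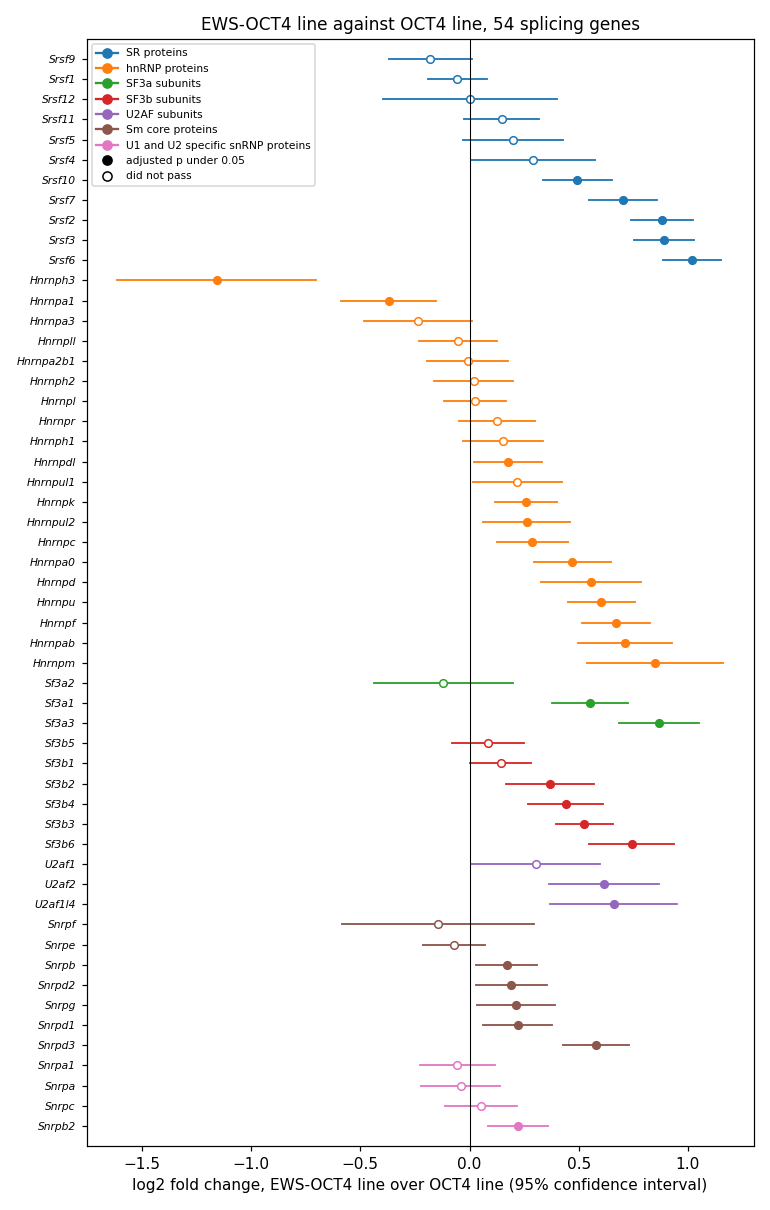
Log2 fold change of the 54 splicing genes in the EWS-OCT4 line over the OCT4 line (x axis), with 95% confidence intervals from edgeR, genes ordered by family (y axis, colours); filled points passed at an adjusted p of 0.05 and open points did not. Most filled points lie to the right of 0, with Srsf6 farthest at 1.02, and Hnrnph3 lies farthest to the left at -1.16.

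Between the OCT4 line and J1, splicing genes were mostly lower in the OCT4 line. In the test, 25 of the 54 genes were lower (32.7% of all genes tested) and 4 were higher (34.3% of all genes), with a median of -0.11 beside 0.0062 over all genes, and 29 passed in either direction (67% of all genes). At 1.5-fold or more, 9 were lower (20.2% of all genes) and 1 was higher (23.7%), and groups did not overlap for 29 genes (68.4%). Sf3b6, Hnrnpab, Srsf7, Srsf2, Srsf12 and Sf3b3 had the largest falls, and Hnrnph3, Hnrnpr, Hnrnpa3 and Hnrnpa2b1 were the 4 that rose. Of the 6 splicing genes on chromosomes 8 and 11, 5 were lower, and of the 48 elsewhere 20 were lower and 4 higher, with a median of -0.087. Without J1 replicate 1 the median was -0.18, with 31 genes lower and 4 higher, and without J1 replicate 2 it was -0.055, with 22 lower and 6 higher.

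Between the EWS-OCT4 line and J1 the genes split. There were 20 higher (30.3% of all genes tested) and 12 lower (31.6%), with a median of 0.093 beside 0.0026 over all genes, and 32 passed in either direction (61.9% of all genes). Few differences were large. At 1.5-fold or more, 2 were higher (15.7% of all genes) and 1 was lower (20.4%), and groups did not overlap for 29 genes (65.7%). Hnrnpr, Hnrnpf, Hnrnpm, Hnrnpd, U2af1 and Hnrnpu led the higher side, and Srsf12, Hnrnpll, Hnrnpa1, Hnrnph1, Sf3b6 and Sf3b3 the lower side. The lean towards higher genes varied with the setting. With upper-quartile factors 12 genes were higher and 13 lower, and so were 12 and 13 when genes of chromosomes 8, 11, X and Y other than the splicing genes were left out of the fit. With RLE scaling there were 21 higher and 12 lower. Without EWS-OCT4 replicate 3 there were 11 of each. The median was 0.033 without J1 replicate 1 and 0.15 without J1 replicate 2.

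The 3 comparisons share libraries, so their counts are not independent of each other. Read by library, 19 of the 54 genes were lower in each OCT4 library than in all 6 others, where 20.3% of all genes were, and 2 genes (Hnrnpa3 and Hnrnph3) were higher in each OCT4 library, where 24.4% of all genes were. The 19 were Srsf2, Srsf3, Srsf6, Srsf7 and Srsf10, Hnrnpa0, Hnrnpab, Hnrnpk and Hnrnpu, Sf3a1, Sf3a3, Sf3b1, Sf3b2, Sf3b3 and Sf3b6, and Snrpb, Snrpd2, Snrpd3 and Snrpg. Together the 54 genes took 1.84% ± 0.181 of all counts in J1, against 1.63% ± 0.0807 for the OCT4 line and 1.87% ± 0.0376 for the EWS-OCT4 line (SD, n = 3).

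**Figure D2:**
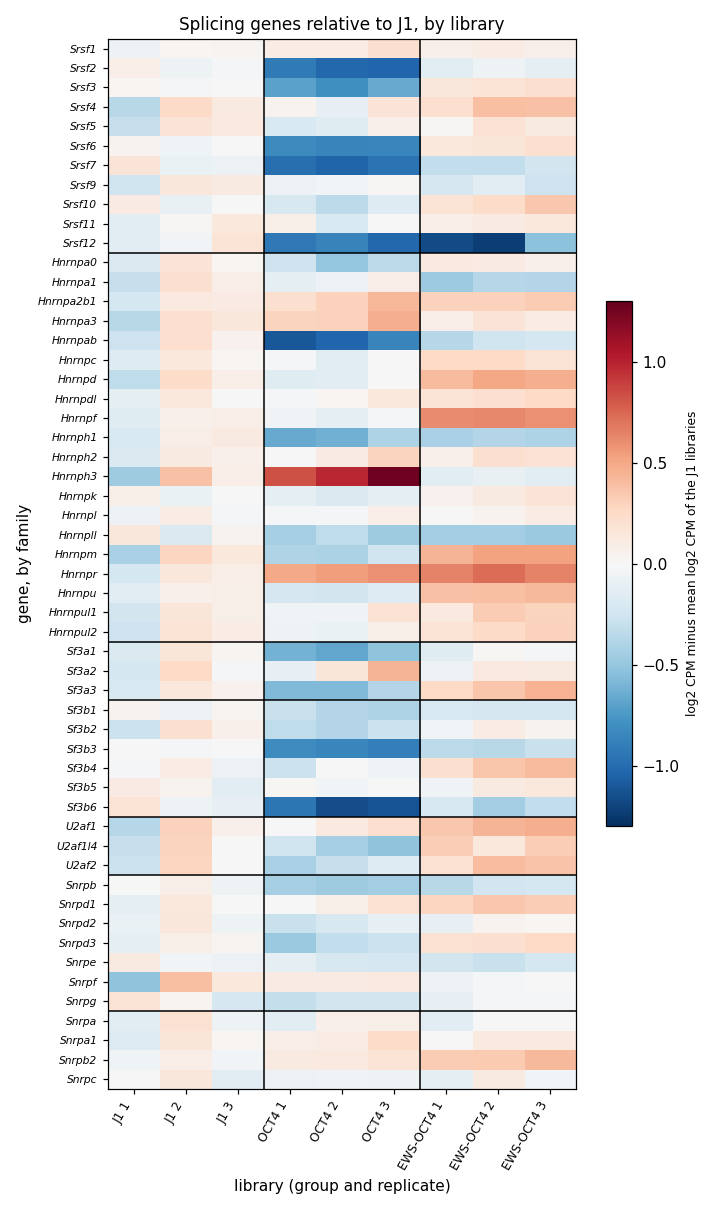
Log2 CPM of each splicing gene (rows, by family, lines between families) in each of the 9 libraries (columns), less the mean of the J1 libraries; blue is below J1 and red above. The blue blocks of Srsf2, Srsf3, Srsf6 and Srsf7 are dark in the 3 OCT4 libraries, and J1 replicate 1 is the lowest J1 library in 38 rows.

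Over the OCT4 line, 5 of 11 SR genes stood higher in the EWS-OCT4 line and none was lower, where 31.9% and 34.6% of all genes tested were. They were Srsf2, Srsf3, Srsf6, Srsf7 and Srsf10. Against J1, 6 were lower in the OCT4 line and none was higher (32.7% and 34.3% of all genes). The EWS-OCT4 line had 3 higher and 3 lower against J1, near the shares of all genes (30.3% and 31.6%). SR genes took 0.287% ± 0.00700 of counts in J1, against 0.223% ± 0.00976 for the OCT4 line and 0.288% ± 0.00577 for the EWS-OCT4 line.

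Srsf6 encodes an exon-enhancer-binding SR protein. Its level was 371, 347 and 361 CPM in the J1 libraries, 202, 198 and 199 CPM in the OCT4 libraries and 396, 402 and 418 CPM in the EWS-OCT4 libraries. The OCT4 libraries lay far below the rest and close to each other. It was 2.03-fold higher in the EWS-OCT4 line than in the OCT4 line (log2 fold change 1.02, SE 0.063, adjusted p = 2.06e-10). Against J1 it was lower in the OCT4 line (log2 fold change -0.85, SE 0.063, adjusted p = 1.84e-09), and the EWS-OCT4 line was slightly higher (log2 fold change 0.17, adjusted p = 0.0226). The last call was lost with upper-quartile factors (adjusted p = 0.0857), without EWS-OCT4 replicate 3 (adjusted p = 0.0997), without J1 replicate 2 (adjusted p = 0.0512) and without genes of chromosomes 8, 11, X and Y, where it was 0.12 with adjusted p = 0.122.

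Srsf3 encodes the smallest SR protein, which also acts in messenger RNA export and 3′ end choice. Its level was 413, 399 and 407 CPM in J1, 251, 234 and 258 CPM in the OCT4 line and 449, 459 and 469 CPM in the EWS-OCT4 line. The same 3 libraries were low. The EWS-OCT4 line was 1.85-fold higher than the OCT4 line (log2 fold change 0.89, SE 0.065, adjusted p = 1.82e-09), and the OCT4 line was lower than J1 (log2 fold change -0.71, SE 0.065, adjusted p = 2.51e-08). The EWS-OCT4 line stood just above J1 (log2 fold change 0.18, adjusted p = 0.0238). This call too was lost with upper-quartile factors, without EWS-OCT4 replicate 2 or 3 and without genes of chromosomes 8, 11, X and Y, where adjusted p was 0.0877, 0.0546, 0.0905 and 0.122.

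Srsf2 encodes SC35, long used as the marker of nuclear speckles. Its libraries gave 349.9, 314 and 326 CPM in J1, 174, 162 and 161 CPM in the OCT4 line and 300.3, 314 and 302 CPM in the EWS-OCT4 line. The EWS-OCT4 line was 1.84-fold higher than the OCT4 line (log2 fold change 0.88, SE 0.067, adjusted p = 3.36e-09), and the OCT4 line was lower than J1 (log2 fold change -0.99, SE 0.067, adjusted p = 5.52e-10). Between the EWS-OCT4 line and J1 the log2 fold change was -0.11 (95% confidence interval -0.25 to 0.03, adjusted p = 0.157). Srsf2 lies on chromosome 11, whose median was below J1 in both lines, and its fall in the OCT4 line was larger than that median of -0.46. Of the 31-base words of its transcripts, 23.1% also occur in other genes' transcripts.

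Srsf7, whose product has a zinc knuckle beside its RNA recognition motif and helps export messenger RNA, had 217, 182 and 183 CPM in J1, 97.9, 93.8 and 99.4 CPM in the OCT4 line and 155, 155 and 164 CPM in the EWS-OCT4 line. All 3 groups were separate, in the order J1, EWS-OCT4, OCT4. The log2 fold change was 0.70, adjusted p = 2.24e-07 for the EWS-OCT4 line over the OCT4 line, -0.999, adjusted p = 1.92e-09 for the OCT4 line over J1 and -0.30, adjusted p = 0.002 for the EWS-OCT4 line over J1.

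Srsf10, whose product represses splicing when dephosphorylated, as after heat shock, was at 241, 209 and 222 CPM in J1, 193, 177 and 198 CPM in the OCT4 line and 252, 263 and 284 CPM in the EWS-OCT4 line. It was higher in the EWS-OCT4 line than in the OCT4 line (log2 fold change 0.49, SE 0.075, adjusted p = 1.51e-05) and than in J1 (log2 fold change 0.25, adjusted p = 0.0071), and lower in the OCT4 line than in J1 (log2 fold change -0.24, adjusted p = 0.00821). Leaving out EWS-OCT4 replicate 3 ended the call against J1 (adjusted p = 0.0533), and that of the OCT4 line without OCT4 replicate 2 (adjusted p = 0.0565).

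Not all SR genes followed. Srsf1, which encodes SF2/ASF, the founding member of the family, had 420.4, 448 and 449 CPM in J1, 468, 469 and 506 CPM in the OCT4 line and 460.2, 469.8 and 458 CPM in the EWS-OCT4 line. Its log2 fold change was -0.06 between the stable lines (95% confidence interval -0.19 to 0.08, adjusted p = 0.459), 0.13, adjusted p = 0.0809 for the OCT4 line over J1 and 0.08, adjusted p = 0.322 for the EWS-OCT4 line over J1. It also lies on chromosome 11. Srsf12, an SR gene with few counts, was lower than J1 in both stable lines, at 6.61 ± 0.739 CPM in J1, 3.44 ± 0.191 CPM in the OCT4 line and 3.43 ± 0.969 CPM in the EWS-OCT4 line (SD, n = 3; log2 fold change -0.94, adjusted p = 0.000154, and -0.94, adjusted p = 0.000199). Between the stable lines its interval was wide, -0.39 to 0.40. Means of Srsf4 were 133 ± 27.6, 135 ± 12.5 and 165 ± 10.7 CPM in J1, OCT4 and EWS-OCT4 cells, with a log2 fold change of 0.29, adjusted p = 0.067 between the stable lines. Those of Srsf5 were 365 ± 62.6, 339 ± 33.4 and 389.9 ± 22.7 CPM, and those of Srsf11 were 298 ± 28.9, 289 ± 28.0 and 320.2 ± 5.40 CPM, with no call in the 3 comparisons. Srsf9 was at 55.2 ± 8.20, 53.6 ± 1.63 and 47.4 ± 2.20 CPM and passed as lower in the EWS-OCT4 line than in J1 (log2 fold change -0.22, adjusted p = 0.0439), a call lost under 10 of the 17 alternatives. It was -0.34 without J1 replicate 1 (adjusted p = 0.000182) and -0.15 without J1 replicate 2 (adjusted p = 0.162).

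**Figure D3:**
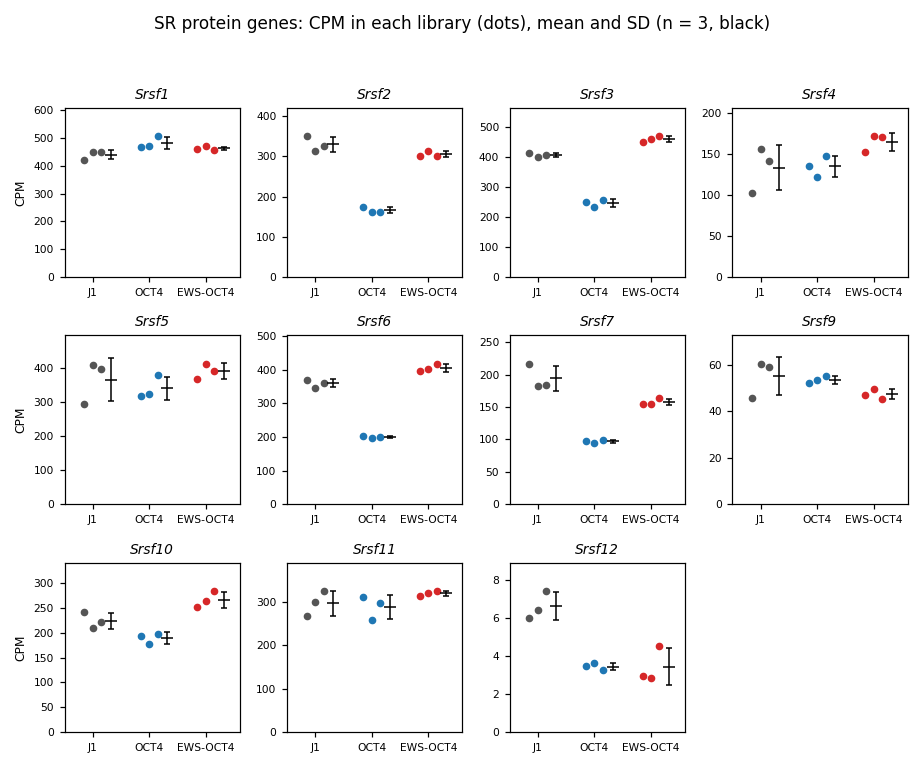
CPM of the 11 SR genes in each library (dots, y axis from 0) by group (x axis), with mean and SD in black (n = 3). The 3 OCT4 dots of Srsf2, Srsf3, Srsf6 and Srsf7 lie below all dots of the other groups, while those of Srsf1 do not.

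The hnRNP genes were divided. Over the OCT4 line, 10 of 20 stood higher in the EWS-OCT4 line and 2 were lower (31.9% and 34.6% of all genes tested). Against J1, the EWS-OCT4 line had 10 higher and 4 lower (30.3% and 31.6% of all genes), and the OCT4 line 4 higher and 6 lower (34.3% and 32.7%). The 6 of 20 lower in the OCT4 line were near the share of all genes. The 20 hnRNP genes took 1.12% ± 0.140 of counts in J1, against 1.05% ± 0.0621 for the OCT4 line and 1.16% ± 0.0196 for the EWS-OCT4 line. The J1 range overlapped those of both stable lines, which did not overlap each other.

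Hnrnpm, whose product binds GU-rich RNA, was at 305, 497 and 449 CPM in J1, 311, 306 and 342 CPM in the OCT4 line and 554, 588 and 586 CPM in the EWS-OCT4 line. The EWS-OCT4 libraries were above all others, and J1 replicate 1 sat with the OCT4 libraries. It was 1.80-fold higher in the EWS-OCT4 line than in the OCT4 line (log2 fold change 0.85, SE 0.14, adjusted p = 0.000247) and higher than in J1 (log2 fold change 0.47, SE 0.14, adjusted p = 0.0133), a value of 0.28 without J1 replicate 1. The fall in the OCT4 line against J1 (log2 fold change -0.38, adjusted p = 0.0314) was lost without J1 replicate 2, where it was -0.24 with adjusted p = 0.136, and without J1 replicate 3 or OCT4 replicate 1 or 2, where adjusted p was 0.0807, 0.0925 and 0.0902.

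Hnrnpf and Hnrnpu had the same order of groups. Hnrnpf, whose product binds runs of G, was at 717, 839 and 851 CPM in J1, 777, 736 and 788 CPM in the OCT4 line and 1222, 1237 and 1206 CPM in the EWS-OCT4 line. It was higher in the EWS-OCT4 line than in the OCT4 line (log2 fold change 0.67, adjusted p = 3.85e-07) and than in J1 (log2 fold change 0.61, adjusted p = 1.72e-06), but 66.2% of its 31-base words also occur in other genes' transcripts, so its counts are uncertain. Hnrnpu, which encodes the chromatin-bound scaffold protein SAF-A, was at 1075, 1249.8 and 1261 CPM in J1, 1025, 1011 and 1065 CPM in the OCT4 line and 1556, 1566 and 1592 CPM in the EWS-OCT4 line. Its log2 fold changes were 0.60, adjusted p = 1.25e-06 between the stable lines, 0.39, adjusted p = 0.00016 for the EWS-OCT4 line over J1 and -0.21, adjusted p = 0.0178 for the OCT4 line over J1. That last call was lost without OCT4 replicate 1 or 2 (adjusted p = 0.0519 and 0.0639). Hnrnpd, which encodes AUF1, a protein of AU-rich decay elements, was at 381 ± 74.0 CPM in J1, 353 ± 22.7 CPM in the OCT4 line and 519 ± 15.3 CPM in the EWS-OCT4 line (SD, n = 3), and was higher in the EWS-OCT4 line than in either (log2 fold change 0.56, adjusted p = 0.000312 over the OCT4 line, 0.44, adjusted p = 0.0022 over J1).

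Hnrnph3, a relative of the G-run binders, went the other way. Its level was 36.4, 65.4 and 53.3 CPM in J1, 89.2, 98.9 and 121 CPM in the OCT4 line and 45.6, 47.1 and 45.7 CPM in the EWS-OCT4 line. The OCT4 libraries were above all others, and the J1 libraries spread widely around the EWS-OCT4 ones. The EWS-OCT4 line had 44.8% of the mean level of the OCT4 line (log2 fold change -1.16, SE 0.20, adjusted p = 0.000882), and the OCT4 line was 1.99-fold above J1 (log2 fold change 0.99, SE 0.20, adjusted p = 0.00197). Between the EWS-OCT4 line and J1 the log2 fold change was -0.16, with a 95% confidence interval of -0.62 to 0.30.

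Hnrnpa1, the best studied splicing repressor of the family, was at 900.3, 1277 and 1175 CPM in J1, 1015, 1046 and 1173 CPM in the OCT4 line and 796, 854 and 852 CPM in the EWS-OCT4 line. It was lowest in the EWS-OCT4 libraries, below the OCT4 line (log2 fold change -0.37, SE 0.10, adjusted p = 0.00459) and J1 (log2 fold change -0.42, SE 0.10, adjusted p = 0.002). Of its 31-base words, 29.9% occur in other genes. Its paralogue Hnrnpa2b1, a factor of splicing and RNA transport, was instead lowest in J1, at 827, 1054 and 1038 CPM, against 1119, 1187 and 1307 CPM in the OCT4 line and 1187, 1189 and 1214 CPM in the EWS-OCT4 line. Its log2 fold change over J1 was 0.31, adjusted p = 0.00518 in the OCT4 line and 0.30, adjusted p = 0.00717 in the EWS-OCT4 line, or 0.20 and 0.19 without J1 replicate 1, and -0.01 between the stable lines (95% confidence interval -0.19 to 0.18). Hnrnpa3 was highest in the OCT4 line, at 1642 ± 121 CPM against 1303 ± 265 CPM in J1 (log2 fold change 0.33, adjusted p = 0.0188), a value of 0.17 without J1 replicate 1, and the call was lost without OCT4 replicate 3 (adjusted p = 0.0791). Its mean in the EWS-OCT4 line was 1394 ± 44.0 CPM. Hnrnpa0, whose transcript shared no such word with another gene, was lower in the OCT4 line than in J1 and than in the EWS-OCT4 line, at 109.7 ± 9.08 CPM against 143 ± 17.0 and 152 ± 3.30 CPM (log2 fold change -0.38, adjusted p = 0.000689 over J1, and 0.47, adjusted p = 8.99e-05 for the EWS-OCT4 line over the OCT4 line).

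Hnrnpr was higher than J1 in both stable lines. It was at 93.5, 121 and 116 CPM in J1, 154, 159.7 and 165 CPM in the OCT4 line and 171, 181 and 171 CPM in the EWS-OCT4 line, and no J1 library reached the stable lines (log2 fold change 0.66, SE 0.083, adjusted p = 2.28e-06, and 0.54, adjusted p = 1.88e-05). Hnrnpll, a regulator of alternative splicing in lymphocytes, was lower than J1 in both lines, at 50.2 ± 5.86 CPM in J1, 37.8 ± 1.84 CPM in the OCT4 line and 36.4 ± 0.467 CPM in the EWS-OCT4 line (log2 fold change -0.41, adjusted p = 0.000288, and -0.46, adjusted p = 0.000115). Both genes lie outside chromosomes 8 and 11.

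Hnrnpab and Hnrnph1 are on chromosome 11. Hnrnpab was at 823, 1149.9 and 1029 CPM in J1, 462, 484 and 546 CPM in the OCT4 line and 764, 830.3 and 847 CPM in the EWS-OCT4 line. The OCT4 line had 49.7% of the mean J1 level (log2 fold change -1.01, SE 0.10, adjusted p = 1.93e-07), beyond the chromosome's median of -0.46, and the EWS-OCT4 line was 1.64-fold above the OCT4 line (log2 fold change 0.71, adjusted p = 1.19e-05). Its lower value in the EWS-OCT4 line against J1 (log2 fold change -0.30, adjusted p = 0.0174) did not pass without J1 replicate 2, at -0.19 with adjusted p = 0.0841, or without J1 replicate 3 or EWS-OCT4 replicate 1 (adjusted p = 0.0584 and 0.0866). Hnrnph1 was at 640.0, 777 and 794 CPM in J1, 467, 474 and 556 CPM in the OCT4 line and 547, 563 and 557 CPM in the EWS-OCT4 line. Both lines were below all J1 libraries (log2 fold change -0.56, adjusted p = 1.74e-05, and -0.41, adjusted p = 0.000543), close to the chromosome's medians. Between the lines its log2 fold change was 0.15, adjusted p = 0.125, and 4 alternatives called it higher, with a lowest adjusted p of 0.0113.

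Hnrnpc and Hnrnpk, both abundant RNA-binding proteins, differed by smaller amounts. Hnrnpc, which binds runs of U, was at 431, 529 and 492 CPM in J1, 475, 436 and 481 CPM in the OCT4 line and 578, 578 and 544 CPM in the EWS-OCT4 line. It was higher in the EWS-OCT4 line than in the OCT4 line (log2 fold change 0.29, adjusted p = 0.00336) and than in J1 (log2 fold change 0.23, adjusted p = 0.0164). The latter was lost without J1 replicate 1, at 0.15 with adjusted p = 0.0523, and with upper-quartile factors or without genes of chromosomes 8, 11, X and Y (adjusted p = 0.0553 and 0.0633). Hnrnpk, which binds runs of C, was at 919, 824 and 876 CPM in J1, 799.5, 764 and 803 CPM in the OCT4 line and 906, 949 and 978 CPM in the EWS-OCT4 line. It was higher in the EWS-OCT4 line than in the OCT4 line (log2 fold change 0.26, adjusted p = 0.00283), and the OCT4 line had a log2 fold change of -0.15, adjusted p = 0.0666 against J1, which 6 of the 17 alternatives called, with a lowest adjusted p of 0.0151. For the remaining hnRNP genes, the largest value in any comparison was that of Hnrnpul2, at 0.26, adjusted p = 0.0212 between the stable lines. It did not pass without OCT4 replicate 1, OCT4 replicate 2 or EWS-OCT4 replicate 3 (adjusted p = 0.0706, 0.0810 and 0.0712). Hnrnpl, which binds CA repeats, had means of 358 ± 22.8, 363 ± 13.6 and 369 ± 12.5 CPM in J1, OCT4 and EWS-OCT4 cells. Hnrnph2, on the X chromosome, had 96.0 ± 10.7, 105 ± 10.4 and 106 ± 5.53 CPM, although the median X-linked gene was at -0.52 in the EWS-OCT4 line against the OCT4 line. Hnrnpdl and Hnrnpul1 were higher in the EWS-OCT4 line than in J1 (log2 fold change 0.22, adjusted p = 0.0177, and 0.24, adjusted p = 0.0394), as was Hnrnpul2 (log2 fold change 0.23, adjusted p = 0.0452), and all 3 calls were lost with upper-quartile factors (adjusted p = 0.0635, 0.100 and 0.118). Without J1 replicate 1 they were also lost, at 0.15, 0.13 and 0.10 (adjusted p = 0.0509, 0.145 and 0.200). In all, 4, 6 and 8 of the 17 alternatives ended these calls.

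**Figure D4:**
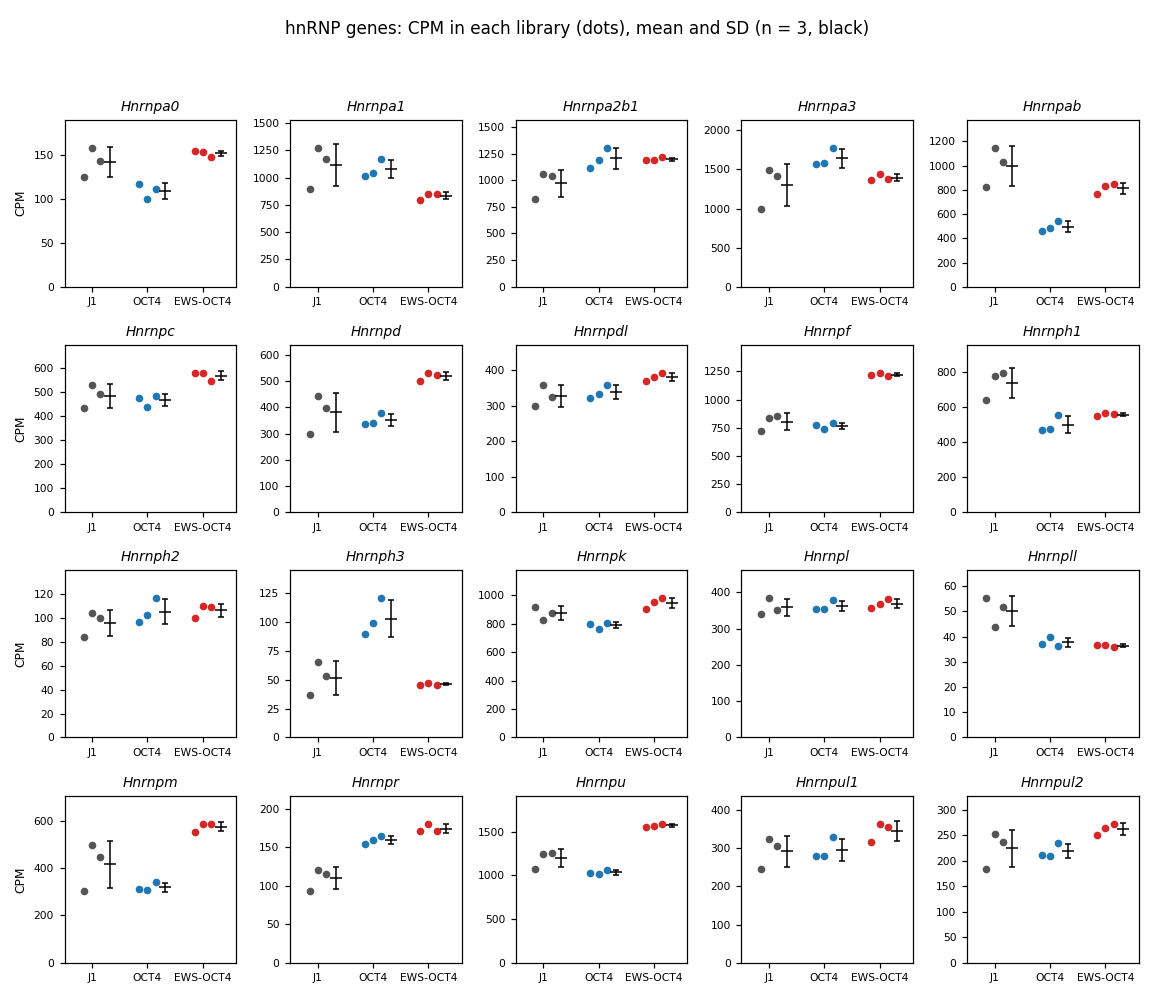
CPM of the 20 hnRNP genes in each library (dots, y axis from 0) by group (x axis), with mean and SD in black (n = 3). Hnrnph3 is highest and Hnrnpab lowest in the 3 OCT4 libraries, Hnrnpf, Hnrnpm and Hnrnpu are highest in the 3 EWS-OCT4 libraries, and Hnrnpr is lowest in J1.

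The U2AF and SF3 genes serve 3′ splice site and branch point recognition. Over the OCT4 line, 2 of the 3 U2AF genes and 6 of the 9 SF3 genes (2 SF3a and 4 SF3b) were higher in the fusion line, with none lower (31.9% and 34.6% of all genes tested). Against J1, the OCT4 line had 2 U2AF genes and 6 SF3 genes (2 SF3a and 4 SF3b) lower and none higher (32.7% and 34.3% of all genes). SF3 genes took 0.249% ± 0.0124 of counts in J1, against 0.181% ± 0.00272 for the OCT4 line and 0.221% ± 0.00497 for the EWS-OCT4 line, so that the 3 ranges did not overlap.

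U2af2, the large subunit that binds the polypyrimidine tract, was at 270.1, 398 and 326 CPM in J1, 244, 266 and 291 CPM in the OCT4 line and 375, 431 and 422 CPM in the EWS-OCT4 line. It was 1.53-fold higher in the EWS-OCT4 line than in the OCT4 line (log2 fold change 0.62, SE 0.12, adjusted p = 0.000334). Its J1 libraries overlapped both lines, and the calls against J1 (log2 fold change 0.31, adjusted p = 0.0342 for the EWS-OCT4 line, and -0.31, adjusted p = 0.0292 for the OCT4 line) changed with single libraries. The first was 0.18 without J1 replicate 1 (adjusted p = 0.0916) and was also lost without J1 replicate 3 or EWS-OCT4 replicate 2 or 3 (adjusted p = 0.0881, 0.0823 and 0.0911), with upper-quartile factors (adjusted p = 0.0866) or without genes of chromosomes 8, 11, X and Y (adjusted p = 0.0778). The second was -0.16 without J1 replicate 2 (adjusted p = 0.121) and was also lost without OCT4 replicate 1 or 2 (adjusted p = 0.118 and 0.0765).

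U2af1, the small subunit that reads the AG at the 3′ splice site, was at 146, 233 and 198 CPM in J1, 189, 206 and 220.1 CPM in the OCT4 line and 240.0, 257 and 262 CPM in the EWS-OCT4 line. The EWS-OCT4 libraries were above all others. It was higher than J1 (log2 fold change 0.40, SE 0.13, adjusted p = 0.0232), a value of 0.23 without J1 replicate 1 and not called without EWS-OCT4 replicate 3 or with upper-quartile factors (adjusted p = 0.0626 and 0.0519). Over the OCT4 line the log2 fold change was 0.30, adjusted p = 0.0652, and 8 of the 17 alternatives called it, with a lowest adjusted p of 1.89e-05. The U2af1 relative U2af1l4 was low, at 9.94 ± 2.01, 7.43 ± 0.720 and 11.7 ± 0.829 CPM, and was higher in the EWS-OCT4 line than in the OCT4 line (log2 fold change 0.66, adjusted p = 0.000421). Of the 31-base words of U2af1l4, 49.6% also occur in other genes' transcripts, so its counts are uncertain. Its call in the OCT4 line against J1 (log2 fold change -0.42, adjusted p = 0.0127) was lost without J1 replicate 2, at -0.26 with adjusted p = 0.0924, or without OCT4 replicate 3 (adjusted p = 0.0593).

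In SF3a, which joins SF3b to the U2 snRNP, Sf3a3 was at 134, 169 and 159.7 CPM in J1, 103, 103 and 118 CPM in the OCT4 line and 184, 197 and 210.3 CPM in the EWS-OCT4 line. The 3 groups were fully separate, and the EWS-OCT4 line was 1.82-fold above the OCT4 line (log2 fold change 0.87, SE 0.087, adjusted p = 1.19e-07) and above J1 (log2 fold change 0.35, adjusted p = 0.00183), with the OCT4 line below J1 (log2 fold change -0.51, adjusted p = 4.96e-05). Sf3a1, on chromosome 11, was at 341 ± 39.6, 223 ± 11.7 and 327 ± 20.9 CPM, lower in the OCT4 line than in J1 (log2 fold change -0.61, adjusted p = 4.46e-06) and higher in the EWS-OCT4 line than in the OCT4 line (log2 fold change 0.55, adjusted p = 1.52e-05). Sf3a2 passed in none of the comparisons, with means of 88.2 ± 14.9, 99.0 ± 18.5 and 91.0 ± 7.19 CPM.

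In SF3b, which holds the branch point adenosine, Sf3b6 (the p14 subunit, which touches that adenosine) was at 68.3, 57.9 and 56.0 CPM in J1, 31.6, 27.2 and 27.9 CPM in the OCT4 line and 52.3, 44.2 and 48.5 CPM in the EWS-OCT4 line. The OCT4 line had 47.5% of the J1 mean (log2 fold change -1.07, SE 0.091, adjusted p = 1.12e-08), the largest fall among the 54 genes, and the EWS-OCT4 line was 1.67-fold above it (log2 fold change 0.74, adjusted p = 1.56e-06) and below J1 (log2 fold change -0.33, adjusted p = 0.00364). Sf3b6 lies on chromosome 12, whose median against J1 was -0.29 in the EWS-OCT4 line, close to this value, and -0.15 in the OCT4 line. Sf3b3 was at 454, 447 and 455 CPM in J1, 256, 251 and 243 CPM in the OCT4 line and 357, 353 and 369 CPM in the EWS-OCT4 line. Its log2 fold changes were -0.85, adjusted p = 1.32e-09 for the OCT4 line over J1, -0.33, adjusted p = 0.000169 for the EWS-OCT4 line over J1 and 0.53, adjusted p = 8.14e-07 between the lines. Sf3b3 is on chromosome 8, and its fall in the OCT4 line exceeded that chromosome's median of -0.47, while its fall in the EWS-OCT4 line did not exceed the median of -0.44.

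Sf3b1, the scaffold of the complex and a gene often mutated in blood cancers, was at 791, 729 and 786 CPM in J1, 629, 589 and 581 CPM in the OCT4 line and 669, 661 and 655 CPM in the EWS-OCT4 line. Both lines were below J1 (log2 fold change -0.36, adjusted p = 0.000121, and -0.22, adjusted p = 0.00903), and between the lines the log2 fold change was 0.14, adjusted p = 0.0665, which 9 of the 17 alternatives called, with a lowest adjusted p of 0.00685. Sf3b2 was higher in the EWS-OCT4 line than in the OCT4 line (log2 fold change 0.37, adjusted p = 0.00279), with means of 451 ± 76.5, 355 ± 11.7 and 458 ± 21.8 CPM. Sf3b4 was higher there too (log2 fold change 0.44, adjusted p = 0.000123) and higher than J1 (log2 fold change 0.33, adjusted p = 0.00192), but 51.2% of its 31-base words are shared with other genes. Sf3b5 passed in none of the comparisons, at 49.9 ± 4.53, 49.3 ± 0.889 and 52.2 ± 3.59 CPM.

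**Figure D5:**
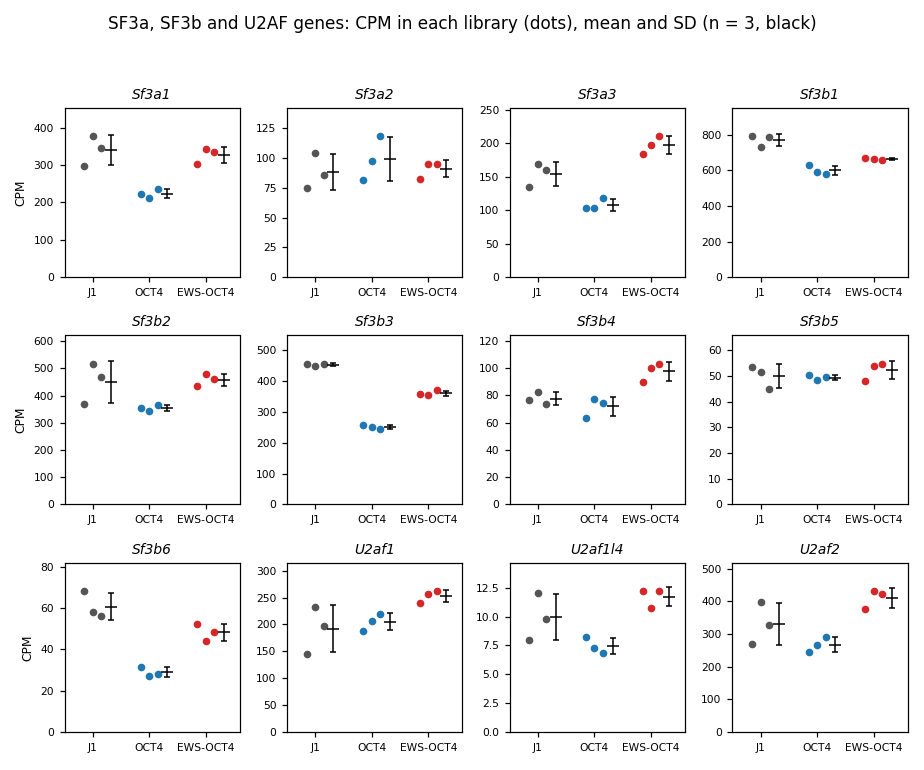
CPM of the 9 SF3a and SF3b genes and 3 U2AF genes in each library (dots, y axis from 0) by group (x axis), with mean and SD in black (n = 3). Sf3a3, Sf3b3 and Sf3b6 show 3 separate groups with the OCT4 libraries lowest, and in U2af1 and U2af2 the J1 libraries spread widely.

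The Sm ring genes differed by smaller amounts. Over the OCT4 line, 5 of 7 stood higher in the EWS-OCT4 line and none was lower (31.9% and 34.6% of all genes tested), but only Snrpd3 kept that call in all 17 alternatives. Against J1, 5 were lower in the OCT4 line and none was higher (32.7% and 34.3% of all genes). The EWS-OCT4 line had 2 higher and 2 lower against J1, near the shares of all genes (30.3% and 31.6%). Where no SR, SF3, U2AF or Sm gene is given as called in a direction by edgeR, none was either at an unadjusted p under 0.05 or by DESeq2. Snrpd3 was at 112, 128 and 124 CPM in J1, 86.8, 96.9 and 99.7 CPM in the OCT4 line and 139, 139.9 and 145 CPM in the EWS-OCT4 line. The 3 groups were separate (log2 fold change 0.58, SE 0.072, adjusted p = 1.63e-06 between the lines, and -0.36, adjusted p = 0.00026 for the OCT4 line over J1).

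Snrpb, which encodes SmB, was at 114, 121 and 110.1 CPM in J1, 85.4, 83.6 and 84.1 CPM in the OCT4 line and 89.4, 97.0 and 98.2 CPM in the EWS-OCT4 line. It was lower than J1 in the OCT4 line (log2 fold change -0.45, SE 0.065, adjusted p = 8.93e-06) and in the EWS-OCT4 line (log2 fold change -0.28, adjusted p = 0.00121). The difference between the lines (log2 fold change 0.17, adjusted p = 0.0298) was lost under 6 of the 17 alternatives: with upper-quartile factors (adjusted p = 0.0894), and without OCT4 replicate 1, 2 or 3 or EWS-OCT4 replicate 2 or 3 (adjusted p from 0.0562 to 0.101). Snrpd1, which encodes SmD1, was at 69.9, 84.0 and 76.2 CPM in J1, 76.8, 80.5 and 87.8 CPM in the OCT4 line and 93.0, 97.3 and 95.2 CPM in the EWS-OCT4 line, highest in the last (log2 fold change 0.31, adjusted p = 0.0016 over J1, and 0.22, adjusted p = 0.0155 over the OCT4 line). The latter was lost without OCT4 replicate 1 or 2 (adjusted p = 0.0807 and 0.0520).

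Snrpd2 and Snrpg had small differences between the stable lines (log2 fold change 0.19, adjusted p = 0.0379, and 0.21, adjusted p = 0.0345), and both calls were lost with upper-quartile factors (adjusted p = 0.0985 and 0.0802) and without OCT4 replicate 1 or 2 or EWS-OCT4 replicate 2 or 3 (adjusted p from 0.0657 to 0.156). That of Snrpg was also lost without OCT4 replicate 3 (adjusted p = 0.0626). Against J1, Snrpd2 was lower in the OCT4 line (log2 fold change -0.21, adjusted p = 0.0265). This call was lost without J1 replicate 2, at -0.13 with adjusted p = 0.111, or without OCT4 replicate 1 or 2 (adjusted p = 0.127 and 0.0748). Snrpe was lower than J1 in both lines (log2 fold change -0.18, adjusted p = 0.0217 for the OCT4 line, and -0.25, adjusted p = 0.00334 for the EWS-OCT4 line), the former lost without J1 replicate 1 or OCT4 replicate 2 or 3 (adjusted p = 0.0682, 0.0759 and 0.0783). Snrpf shared 92.1% of its 31-base words with other genes, and its J1 libraries, at 96.4, 182 and 153 CPM, spread more than those of any other Sm gene, so its counts and any direction are uncertain. Its OCT4 libraries were at 149.5, 149 and 152 CPM and its EWS-OCT4 libraries at 132, 137 and 138 CPM.

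The U1 and U2 specific proteins differed least. Snrpc, which encodes U1-C, the known partner of EWS, was at 112, 124 and 101 CPM in J1, 106, 108 and 106 CPM in the OCT4 line and 103, 121 and 109 CPM in the EWS-OCT4 line. All 3 groups overlapped, and the log2 fold change between the stable lines was 0.05 (95% confidence interval -0.11 to 0.22, adjusted p = 0.573). Snrpa, which encodes U1-A, was at 163, 205 and 172 CPM in J1, 162, 187 and 189 CPM in the OCT4 line and 163, 180.1 and 179.6 CPM in the EWS-OCT4 line, with -0.04 between the stable lines (95% confidence interval -0.22 to 0.14). The U2 genes were Snrpa1, at 135 ± 15.8, 149 ± 8.60 and 143 ± 7.32 CPM, and Snrpb2, at 89.3 ± 4.65, 98.3 ± 2.07 and 115 ± 4.22 CPM. Snrpb2 was higher in the EWS-OCT4 line than in the OCT4 line (log2 fold change 0.22, adjusted p = 0.00579) and J1 (log2 fold change 0.36, adjusted p = 0.000115), the only one of the 4 to pass in any comparison.

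The rest of the splicing machinery was counted in 9 gene lists, to be read against the 31.9% (higher) and 34.6% (lower) of all genes that passed between the stable lines. Against J1, the shares of all genes were 34.3% higher and 32.7% lower for the OCT4 line and 30.3% and 31.6% for the EWS-OCT4 line. Later-stage spliceosome genes were mostly higher in EWS-OCT4 than in OCT4 cells. Of 25 proteins of the U4/U6.U5 tri-snRNP, which joins after U2, 18 were higher and 2 lower, with a median of 0.41. Of 25 genes of the Prp19 complex and catalytic steps, 16 were higher and 3 lower (median 0.47). Of 24 other U1 and U2 factors, 12 were higher and 1 lower (median 0.20). Against J1, the OCT4 line had 3 higher and 13 lower in the first list, 4 and 13 in the second and 6 and 13 in the third, and the EWS-OCT4 line had 13 and 5, 11 and 2, and 10 and 5. Bud31, a step factor, was at 41.5 ± 2.14 CPM in the OCT4 line and 100.2 ± 2.45 CPM in the EWS-OCT4 line (SD, n = 3; log2 fold change 1.27, adjusted p = 3.67e-11). Phf5a, a small SF3b subunit outside the symbol rule, was at 20.8 ± 1.42 and 38.9 ± 1.98 CPM (log2 fold change 0.90, adjusted p = 1.91e-07), and Prpf3, of the U4/U6 snRNP, at 80.1 ± 5.10 and 149 ± 7.92 CPM (log2 fold change 0.89, adjusted p = 3.03e-08). Luc7l2, a U1-associated protein, was lower in the EWS-OCT4 line than in the OCT4 line (log2 fold change -0.33, adjusted p = 0.000708).

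Genes that build snRNPs, and the joint list of SR-related proteins and SR protein kinases, were also mostly higher in EWS-OCT4 than in OCT4 cells. Of 18 genes of snRNP assembly and import, 13 were higher and 2 lower in EWS-OCT4 over OCT4 cells (median 0.47). Gemin4 and Ddx20, both of the SMN complex that loads Sm rings, had the largest differences (log2 fold change 1.27, adjusted p = 8.26e-10, and 1.18, adjusted p = 7.49e-11). Against J1 this list had 2 higher and 13 lower in the OCT4 line, led by Gemin4 and Gemin5 (log2 fold change -1.81, adjusted p = 5.62e-12, and -1.37, adjusted p = 3.30e-11), and 6 and 6 in the EWS-OCT4 line. Of 21 SR-related proteins and SR protein kinases, 13 were higher and 5 lower between the stable lines. Pnn (pinin) was at 249 ± 32.7 CPM in the OCT4 line and 446 ± 19.6 CPM in the EWS-OCT4 line (log2 fold change 0.84, adjusted p = 0.00307), while the kinase genes Clk3 and Srpk2 were lower in the EWS-OCT4 line (log2 fold change -0.67, adjusted p = 1.23e-07, and -0.36, adjusted p = 0.000196). Against J1, 7 were higher and 4 lower in EWS-OCT4 cells, and 4 and 7 in OCT4 cells.

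Of the 9 FET and paraspeckle genes, 6 were higher and 1 was lower in EWS-OCT4 over OCT4 cells. Pspc1, a paraspeckle protein, was at 72.7 ± 10.5 CPM in the OCT4 line and 151 ± 6.26 CPM in the EWS-OCT4 line (log2 fold change 1.05, adjusted p = 1.66e-08), Sfpq was higher (log2 fold change 0.56, adjusted p = 2.76e-06) and Nono was lower (log2 fold change -0.44, adjusted p = 0.000559). The mouse Ewsr1 gene was at 478, 621 and 582 CPM in J1, 426, 465 and 516 CPM in the OCT4 line and 495, 549 and 551 CPM in the EWS-OCT4 line. Against J1, 5 were higher in EWS-OCT4 cells, and in OCT4 cells 2 were higher and 4 lower. Of 10 minor spliceosome genes, 5 were higher and 3 lower between the stable lines, 3 and 2 in the EWS-OCT4 line against J1, and 4 and 2 in the OCT4 line against J1. Of 16 genes of the exon junction complex and nonsense-mediated decay, 7 were higher and 3 lower between the stable lines, 3 and 8 in the EWS-OCT4 line against J1, and 2 and 10 in the OCT4 line against J1.

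The 35 splicing regulators known for cell-type programmes showed no common direction, with 14 higher and 11 lower between the stable lines, but single differences were larger than any among the SR and hnRNP genes. Esrp1, the epithelial regulator, was at 34.7 ± 2.15 CPM in J1, 4.58 ± 0.409 CPM in the OCT4 line and 18.0 ± 0.943 CPM in the EWS-OCT4 line (SD, n = 3; log2 fold change 1.97, adjusted p = 2.94e-11 between the lines, and -2.92, adjusted p = 9.05e-14 for the OCT4 line over J1). Mbnl2, a regulator known to oppose ESC-type splicing, was at 63.8 ± 8.86 CPM in J1, 219.8 ± 6.66 CPM in the OCT4 line and 119 ± 1.04 CPM in the EWS-OCT4 line (log2 fold change -0.88, adjusted p = 4.27e-08 between the lines, 1.78, adjusted p = 4.80e-12 for the OCT4 line over J1, and 0.90, adjusted p = 5.73e-08 for the EWS-OCT4 line over J1). Nova2, a neuronal regulator, was highest in the OCT4 line at 43.5 ± 5.27 CPM (log2 fold change -1.90, adjusted p = 2.95e-09 between the lines). Against J1, 10 were higher and 12 lower in EWS-OCT4 cells, and 9 and 12 in OCT4 cells.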

How the data were processed

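RNA-seq libraries of total RNA (CORALL V2 kit, per the labels' protocols) were deposited by the authors as 9 tables of raw, whole counts for each symbol. GRCm39, STAR, Salmon, fastp and GATK appear in the submitters' processing notes. The sources used here do not state annotation, strand, rounding or use of molecular identifiers, so overlapping and antisense genes and near-identical copies are uncertain. Sharing was checked as the percentage of a gene's 31-base transcript words found in another gene's reference transcripts, and 22 of the 54 genes had over 10%. Besides those flagged above, they included Srsf4 (41%), Snrpa (29.9%), Hnrnpa3 and Hnrnpab (28.1% each), U2af1 (25.8%), Hnrnph2 (22%), U2af2 (21.4%) and Hnrnpk (21.1%). Their counts carry the same uncertainty.

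Groups came from library names. Genes passed edgeR's filterByExpr (minimum count 10, total 15). The 3 groups were fitted together over all 9 libraries by edgeR 4.0.16 under R 4.3.3, with TMM scaling, robust quasi-likelihood tests, no replicate block and Benjamini-Hochberg adjustment over 16562 genes at 0.05. Standard errors are the log2 fold change over the square root of F. CPM use TMM-scaled totals and suit comparison within a gene. Shares of counts use unscaled library totals, which include mitochondrial genes and Gm26917, and so are on another scale than CPM. A total of 12189 symbols had no count. Chi-square per degree of freedom between replicates ran from 3.21 to 29.2, so none was a repeat deposit. The tests were checked on simulated counts that gave each gene the same spread in all groups. That check does not cover groups of unlike spread.

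The genes, lists and rules were chosen with earlier results of these data known. Named in each comparison were 17 genes of known role and, per direction, the 6 largest passing changes without overlap and with at least 5 CPM. From each list, at most 2 genes per direction were taken by the same rule. Other genes are described by levels and calls. The 16 alternatives chosen at the outset were RLE and upper-quartile scaling, no filter, DESeq2 1.42.0, only the 6 libraries compared, a replicate block, no mitochondrial genes or Gm26917, and each library left out. One more, without genes of chromosomes 8, 11, X and Y, was added after seeing the data. Chromosomes and promoters are RefSeq's for GRCm38.p6, another build than the counts', matched by symbol (16063 tested genes).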

Additional observations from a re-analysis of the deposited data

How the results depend on the processing

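Over the 17 alternatives, the 54 genes had 23 to 37 higher and 2 to 5 lower in EWS-OCT4 versus OCT4, 11 to 22 and 10 to 14 in EWS-OCT4 versus J1, and 3 to 6 and 19 to 31 in OCT4 versus J1, and no median changed sign. Counts moved by over 1.5 times were the higher genes of EWS-OCT4 versus J1, 12 with upper-quartile scaling, 12 when chromosomes 8, 11, X and Y were left out and 11 without EWS-OCT4 replicate 3, and the lower genes of EWS-OCT4 versus OCT4, 5 with only the 6 libraries compared and 5 without J1 replicate 1. The cause was not tested. Leaving out each library in turn gave, for EWS-OCT4 versus OCT4, 23 to 37 higher, 2 to 5 lower and a median of 0.20 to 0.27. For EWS-OCT4 versus J1 it gave 11 to 22, 10 to 14 and 0.03 to 0.15, and for OCT4 versus J1 3 to 6, 19 to 31 and -0.175 to -0.0548. The labels do not say whether replicate numbers pair the libraries. Deviations of same-numbered libraries correlated only weakly, at -3.17e-05 to 0.0737. Still, 4, 5 and 4 of 6 libraries matched their own number best, and pairing was not tested further. With the replicate block there were 34 higher and 3 lower, 22 and 12, and 4 and 25 in the same order of comparisons. Named genes whose sign changed were near 0 and uncalled. In EWS-OCT4 versus OCT4, Hnrnpa2b1 was 0.0106 with RLE scaling, 0.0183 with no filter, 0.0154 with DESeq2, 0.00809 with only the 6 libraries and 0.00881 without mitochondrial genes and Gm26917. Leaving out each library took it from -0.0596 to 0.0541 and Snrpa from -0.108 to 0.027. It took Snrpa from -0.115 to 0.0583 and Snrpc from -0.0844 to 0.0595 in EWS-OCT4 versus J1. In OCT4 versus J1 the ranges were -0.0782 to 0.0961 for Snrpa, -0.159 to 0.00374 for Snrpc, -0.143 to 0.00556 for Hnrnpc, -0.191 to 0.0513 for Hnrnpa1, the last called without J1 replicate 1 (adjusted p = 0.0206), and -0.078 to 0.251 for U2af1. Among the other genes there were 9, 19 and 21 such changes in the 3 comparisons. One was a call, for a gene whose counts are uncertain: Snrpf in OCT4 versus J1 was -0.16 without J1 replicate 1 (adjusted p = 0.0424). Depth was not varied, so its part in these errors was not tested. The smallest count in a library was 61, for Srsf12.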
